A study of Mus musculus with 4 samples.

Results

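The genes described are 52 genes of the actin, tubulin and intermediate filament cytoskeleton and its regulators. They were taken by gene symbol from the 50600 genes of the deposited tables, and all 52 were found. The libraries were RNA-seq of mouse regulatory T cells, the CD4 T cells that restrain immune responses and depend on the transcription factor Foxp3. There were 4 biological replicates of strain C57BL/6NJ primary cells in 1 group, with age unknown, sex not collected and 1 donor identifier shared by all 4, and no reference group. A differentiation protocol for CD4 T cells is linked in the labels, and activated and 72h appear in names inside the files. Whether each replicate came from a separate animal was not stated, so p-values measure only the spread between these libraries. With 1 group, 3 kinds of comparison were possible, namely between genes, between related genes inside a library, and between replicates. The group was not uniform, as Xist, an RNA described with the replicates, was far higher in replicates 1 and 2 than in replicates 3 and 4.

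The cytoskeleton of a T cell is built from actin filaments, microtubules and vimentin filaments, with lamins under the nuclear envelope. Actin monomers are held in reserve by thymosins, delivered to growing ends by profilin and recycled by cofilin, and the Arp2/3 complex starts branched filaments when switched on by WASP and WAVE proteins downstream of Rac and Cdc42. In T cells this machinery shapes migration and the immune synapse, the contact made with an antigen-presenting cell.

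Total counts per library ran from 51460018 to 121477975, and a single gene of the set had between 294 and 912783 counts in a library. Levels are given in TPM, counts per gene divided by its merged exon length and scaled so that all libraries share 1 total. All 14 T cell and regulatory T cell markers were at 1 TPM or more in every library, with Foxp3 at 448 TPM and Cd4 at 656 TPM on average. The 42 markers of other cell types reached 13.4 TPM at most when summed over any list in any library. Among them Lyz2, Col3a1, Dcn, Cdh5, Ncr1 and Pf4 had 0 counts. Others were detected, such as Cd8b1 at 11.5 TPM, Pecam1 at 9.02 TPM, Cd68 at 4.51 TPM and Eomes at 3.34 TPM on average. Each pair of libraries differed by more than counting noise, with a chi-square per degree of freedom of 18.3 or more.

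The 52 genes were abundant. All 52 were at 1 TPM or more in every library, 46 (88.5%) were at 100 TPM or more, and 8 (15.4%) were at 1000 TPM or more. Of the 21764 protein-coding genes, 8.84% were at 100 TPM or more in every library and 0.418% at 1000 TPM or more. The median of the 52 mean levels was 343 TPM, against 1.04 TPM over the protein-coding genes and 34.3 TPM over 126 other cytoskeletal genes. The 52 and the 126 genes were chosen with earlier results of these data known, so these contrasts may partly reflect that choice. Together the 52 genes held 3.71% ± 0.16 of all TPM (SD, n = 4). Actb alone held 0.888% ± 0.048 (SD, n = 4) and was the third most abundant protein-coding gene. In the order of mean levels, 39 of the 51 neighbouring pairs had ranges that overlapped over the libraries, so their order is not set by the ranges. Compared inside each library, 10 of those 39 kept 1 order in 4 of 4, such as Cfl1 above Pfn1 and Msn above Cdc42. The order also depends on the length assigned to a gene. With that of the longest protein-coding transcript, described with the pairs, Pfn1 averaged 3468 TPM, above Tubb5 at 1993 TPM and Cfl1 at 1328 TPM. With the merged exon length, the 12 steps with separate ranges included the first 3, from Actb to Tmsb4x, to Tubb5 and to Cfl1. They also included, near the bottom, those from Tubb2a to Rhoh and from Lmna to Arhgap18.

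**Figure D1:**
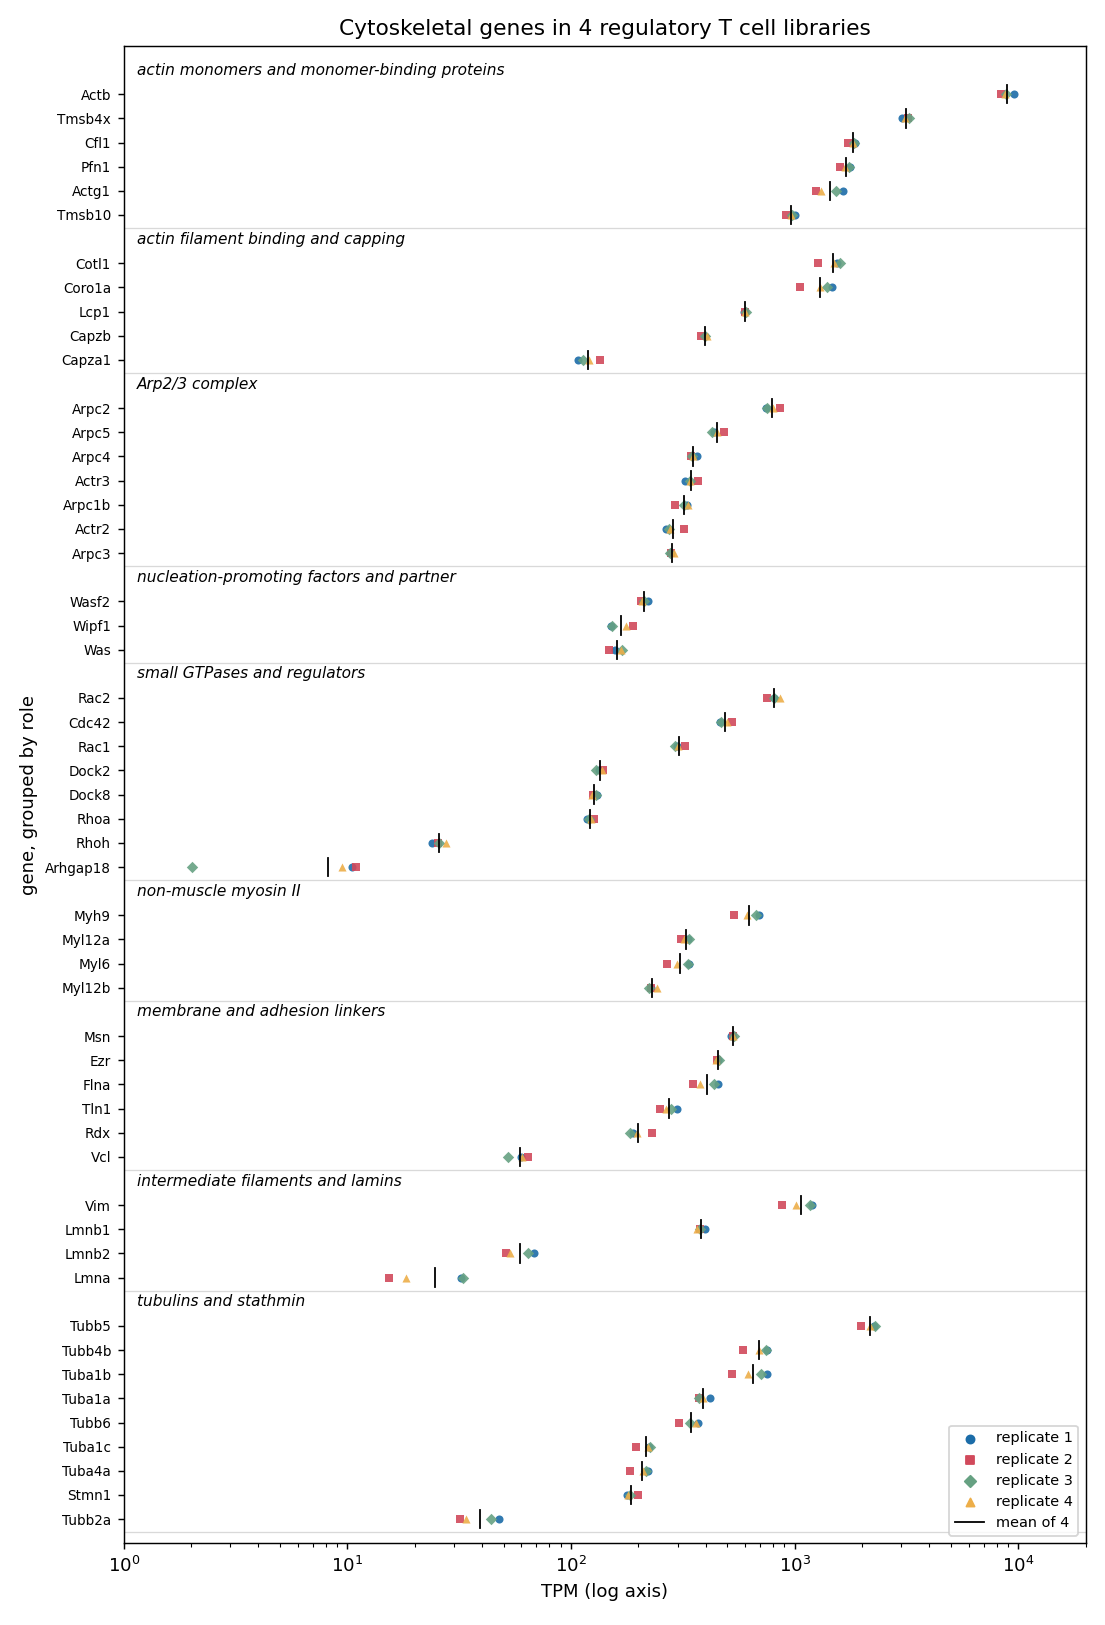
TPM on a log axis of the 52 genes, grouped by role; each symbol is 1 of the 4 replicates and the black bar their mean. Actb lies highest at a mean of 8879 TPM, Arhgap18 lowest at 8.24 TPM with replicate 3 apart at 2.02 TPM, and Lmna is spread from 15.3 to 32.8 TPM.

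Actin and the proteins that bind its monomers made up the most abundant group, with 6 genes summing to 17947 ± 753 TPM (SD, n = 4). Actb, cytoplasmic beta-actin, had 9533, 8402, 8849 and 8732 TPM in replicates 1 to 4. Actg1, cytoplasmic gamma-actin, had 1650, 1249, 1528 and 1317 TPM. Every Actb value lay above every Actg1 value, and Actb supplied 85.2% to 87.1% of the actin TPM. The difference of log2(TPM + 0.1), Actb minus Actg1, was 2.64 ± 0.12 (SD, n = 4), with Actb higher in 4 of 4 libraries. Both genes encode nearly the same protein, and their coding sequences were identical at 88.7% of 1128 bases. The first 60 coding bases of each show how the transcripts can be told apart although the proteins are so alike; capitals in Actg1 mark the 9 bases that differ from Actb. The sequences are from GENCODE M21 transcripts, from chromosomes 5 and 11.
Actb: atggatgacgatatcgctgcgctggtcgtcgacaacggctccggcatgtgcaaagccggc
Actg1: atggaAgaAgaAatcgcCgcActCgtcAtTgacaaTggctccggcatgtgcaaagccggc

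The level of Actg1 is the less certain of the pair. Of the 100-base windows of its transcript, 51.1% occur unchanged in another gene, mostly in the processed pseudogene Gm12715, against 1.1% for Actb. Reads from such windows fit several places, and the header's counting options do not include reads with several positions. Gm12715 itself had counts equal to 0.579% of those of Actg1.

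Thymosin beta 4, the main monomer-sequestering peptide, was second in the whole set. Tmsb4x had 3037, 3200, 3236 and 3112 TPM, and Tmsb10 had 1007, 913, 971 and 965 TPM. Tmsb4x minus Tmsb10 was 1.71 ± 0.09 on the log2 scale (SD, n = 4), with Tmsb4x higher in 4 of 4 libraries. Set against each other, the summed actins (9651 to 11183 TPM) exceeded the summed thymosins (4044 to 4207 TPM) in every library, by 1.33 ± 0.10 on the log2 scale (SD, n = 4). Cfl1, the non-muscle cofilin that severs filaments, averaged 1820 ± 58.3 TPM, and Pfn1, profilin, averaged 1702 ± 74.6 TPM (SD, n = 4 each). Their relatives were far lower, Cfl2 at 11.8 TPM and Pfn2 at 5.29 TPM. The differences were 7.27 ± 0.26 for Cfl1 minus Cfl2 and 8.32 ± 0.23 for Pfn1 minus Pfn2 (log2, SD, n = 4).

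Among 5 genes that bind or cap filaments, Cotl1, a coactosin-like actin-binding protein, had 1552, 1278, 1604 and 1504 TPM. Coro1a, the coronin of haematopoietic cells, had 1473, 1055, 1395 and 1299 TPM. Both were lowest in replicate 2. Lcp1, the leukocyte plastin that bundles filaments, had 592, 599, 605 and 599 TPM and the lowest coefficient of variation in TPM of the 52 genes (CV, SD over mean), 0.919%. With trends over GC content and length removed its CV was 2.38%, above the 1.11% of Actr2 and the 1.22% of Cfl1. The capping protein subunits Capzb and Capza1 averaged 396 ± 9.81 and 119 ± 11.9 TPM (SD, n = 4 each). Coro1a exceeded Coro1b by 2.10 ± 0.12, and Lcp1 exceeded Pls3, a plastin of other tissues, by 7.55 ± 0.24 (log2, SD, n = 4). Capza1 minus Capza2 was 0.03 ± 0.04 (log2, SD, n = 4), with Capza1 higher in 3 of 4 libraries (exact two-sided sign-flip p = 0.25). Its sign depended on the length used, with -0.94 for the longest transcript and -0.61 in CPM. Capza1 also shares 60.9% of its windows with other genes.

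The 7 subunits of the Arp2/3 complex summed to 2823 ± 101 TPM (SD, n = 4) and lay within a narrow band, the highest 2.75 to 3.07 times the lowest inside each library. Arpc2 had 746, 864, 756 and 800 TPM, and Arpc5 had 436, 484, 429 and 448 TPM. Arpc4 averaged 353 ± 10.4 TPM, Actr3 343 ± 19.4 TPM, Arpc1b 320 ± 19.1 TPM, Actr2 285 ± 24.5 TPM and Arpc3 282 ± 5.40 TPM (SD, n = 4 each). Actr3 and Actr2, the actin-related proteins at the core, had 324, 370, 339 and 340 TPM against 266, 321, 275 and 278 TPM. Actr3 was the higher in 4 of 4 libraries, by 0.27 ± 0.04 (log2, SD, n = 4), although 22.4% of its windows occur in other genes. Where the complex can choose between paralogs, the listed subunit exceeded its alternative, Arpc1b over Arpc1a by 1.59 ± 0.09 and Arpc5 over Arpc5l by 2.77 ± 0.07 (log2, SD, n = 4). The Arpc5 difference was 1.27 with the length of the longest protein-coding transcript, described with the pairs. Replicate 2 held the highest value of 4 of these 7 subunits, as it did for 41.8% of the 13625 genes tested for variation. Part of the exon length of Arpc4, 12.2%, overlaps Ttll3 on the same strand.

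Was, Wasf2 and Wipf1, of the machinery that switches Arp2/3 on, each averaged less than any of its 7 subunits. Wasf2, a WAVE protein acting downstream of Rac, had 222, 207, 211 and 209 TPM. Wipf1, the partner that stabilises WASP, had 151, 190, 152 and 177 TPM. Was, the X-linked Wiskott-Aldrich syndrome gene that encodes WASP of blood cells, had 158, 149, 170 and 168 TPM. Relatives known mainly from other tissues were low, Wasl at 11.4 TPM and Wasf1 at 0.952 TPM. Was exceeded Wasl by 3.82 ± 0.28 and Wasf2 exceeded Wasf1 by 7.84 ± 0.90 (log2, SD, n = 4). For genes near 0 TPM the pseudocount of 0.1 makes such a difference smaller.

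Of the 8 small GTPases and regulators, Rac2, the Rac of blood cells, was highest with 808, 755, 809 and 857 TPM. Cdc42, which controls polarity, had 463, 525, 467 and 499 TPM. Rac1, found in most tissues, had 297, 325, 293 and 300.1 TPM, and lay below Rac2 in 4 of 4 libraries. Rac2 minus Rac1 was 1.41 ± 0.13 (log2, SD, n = 4). The exchange factors Dock2, which activates Rac in lymphocytes, and Dock8, which activates Cdc42, averaged 135 ± 4.50 and 127 ± 3.16 TPM (SD, n = 4 each). Dock1, the form used in other tissues, averaged 0.252 TPM, which put Dock2 higher by 8.62 ± 0.44 (log2, SD, n = 4). Rhoa, which drives contraction, averaged 122 ± 3.49 TPM and exceeded Rhoc by 3.38 ± 0.14 (log2, SD, n = 4). Rhoh, a GTPase-deficient small GTPase of blood cells, averaged 25.6 ± 1.43 TPM (SD, n = 4). Arhgap18, a GTPase-activating protein, was the lowest of the set and is described with the replicates.

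Non-muscle myosin II was represented by its heavy chain Myh9 with 690, 537, 673 and 610 TPM. The regulatory light chains Myl12a and Myl12b averaged 326 ± 12.2 and 231 ± 8.71 TPM, and the essential light chain Myl6 averaged 309 ± 32.5 TPM (SD, n = 4 each). Myl12b had 229, 228, 224 and 244 TPM, against 335, 311, 337 and 321 TPM of Myl12a. Myl12b was therefore lower in 4 of 4 libraries, by -0.50 ± 0.09 (log2, SD, n = 4). Their coding sequences were identical at 96.5% of bases, but just 1.14% of the windows of Myl12a occur in other genes. Myh9 exceeded Myh10, another heavy chain, by 5.57 ± 0.25 (log2, SD, n = 4).

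The 6 linkers between actin and the membrane included the 3 ERM proteins, which tie filaments to membrane proteins. Msn and Ezr were the highest of the 6, and Rdx lay below Flna and Tln1 in mean level. Msn, moesin, had 521, 532, 537 and 533 TPM. Ezr, ezrin, had 454, 450, 461 and 445 TPM. Rdx, radixin, had 190, 230, 183 and 197 TPM. The ranges of all 3 were separate, and in TPM the CVs of Msn and Ezr, 1.28% and 1.52%, were the lowest of the 52 genes after Lcp1. Msn minus Ezr was 0.23 ± 0.03 and Msn minus Rdx 1.41 ± 0.14 (log2, SD, n = 4), with Msn higher in 4 of 4 libraries in both. Flna, filamin A, which crosslinks filaments, had 455, 351, 434 and 377 TPM. Tln1, the talin that binds integrins, averaged 274 ± 21.3 TPM and exceeded Tln2 by 6.67 ± 0.37 (log2, SD, n = 4). Vcl, vinculin, which joins talin to actin, averaged 59.4 ± 5.03 TPM (SD, n = 4).

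Vim, vimentin, had 1199, 876, 1173 and 1014 TPM and was the ninth most abundant of the 52 genes. The lamins were ordered Lmnb1, Lmnb2, Lmna in every library. Lmnb1, a B-type lamin, had 397, 376, 379 and 367 TPM. Lmnb2, the other B-type lamin, had 68.3, 51.2, 64.2 and 53.3 TPM. Lmna, which encodes lamins A and C, had 32.3, 15.3, 32.8 and 18.3 TPM. Lmnb1 exceeded Lmna by 4.02 ± 0.53 and Lmnb2 by 2.69 ± 0.17 (log2, SD, n = 4). The first of these differences was 3.61 and 3.53 in replicates 1 and 3 but 4.61 and 4.32 in replicates 2 and 4.

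Tubulin, the subunit of microtubules, is a dimer of an alpha and a beta chain, each encoded by several genes. Tubb5 had 2267, 1975, 2291 and 2168 TPM and supplied 66% to 68.2% of the TPM of the 4 beta genes. Tubb4b had 752, 586, 747 and 696 TPM. Tubb6 had 369, 303, 341 and 362 TPM, and Tubb2a had 47.8, 31.8, 43.9 and 33.9 TPM. The order Tubb5, Tubb4b, Tubb6, Tubb2a was the same in all 4 libraries. Tubb5 exceeded Tubb4b by 1.65 ± 0.07 and Tubb6 by 2.66 ± 0.08, and Tubb4b exceeded Tubb2a by 4.15 ± 0.16 (log2, SD, n = 4).

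Of the alpha genes, Tuba1b had 752, 527, 709 and 622 TPM. Tuba1a had 417, 373, 374 and 389 TPM, Tuba1c had 222, 196, 226 and 222 TPM, and Tuba4a averaged 207 ± 16.3 TPM (SD, n = 4). Tuba1b exceeded Tuba1a by 0.74 ± 0.19 and Tuba1c by 1.58 ± 0.15 (log2, SD, n = 4), higher in 4 of 4 libraries each time. The 4 alpha genes summed to less than the 4 beta genes in every library, by -1.15 ± 0.04 (log2, SD, n = 4). Stmn1, stathmin, which binds tubulin dimers and favours microtubule disassembly, averaged 185 ± 9.54 TPM (SD, n = 4), and Stmn1 minus the summed alpha genes was -2.98 ± 0.21 (log2, SD, n = 4). Reads that fit several places are not counted in these sums, and their part in both differences was not tested.

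The tubulin genes differ in how far their transcripts can be told apart. The first 60 coding bases of 3 beta genes (GENCODE M21, from chromosomes 17, 2 and 13) are shown, with the bases that differ from Tubb5 in capitals.
Tubb5: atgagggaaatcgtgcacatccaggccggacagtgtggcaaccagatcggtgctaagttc
Tubb4b: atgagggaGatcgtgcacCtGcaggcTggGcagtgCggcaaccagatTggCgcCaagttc
Tubb2a: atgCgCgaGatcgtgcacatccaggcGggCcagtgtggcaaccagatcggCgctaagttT

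Tubb4b and Tubb2a differed from Tubb5 at 9 and 7 bases here, and over the whole coding sequence Tubb5 and Tubb4b were identical at 82.2% of bases. The 3 alpha genes Tuba1a, Tuba1b and Tuba1c, neighbours on chromosome 15, were closer, with coding sequences identical at 97.1% to 98.3% of bases. Windows occurring in other genes made up 69.1% of Tuba1b, 53.4% of Tuba1c and 50% of Tuba1a. The division of counts among these 3 is therefore uncertain, and so is their sum. Such windows made up 29.2% of Tubb4b, mostly in its pseudogene Tubb4b-ps1, and 36.9% of Tubb2a, mostly in Tubb2b. Tubb5, Tubb6 and Tuba4a had 0 such windows. Besides these genes and Actg1, Capza1 and Actr3, over 20% of windows occur elsewhere for Stmn1 (26.1%) and Tmsb10 (21.5%), which makes 10 genes in all.

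**Figure D2:**
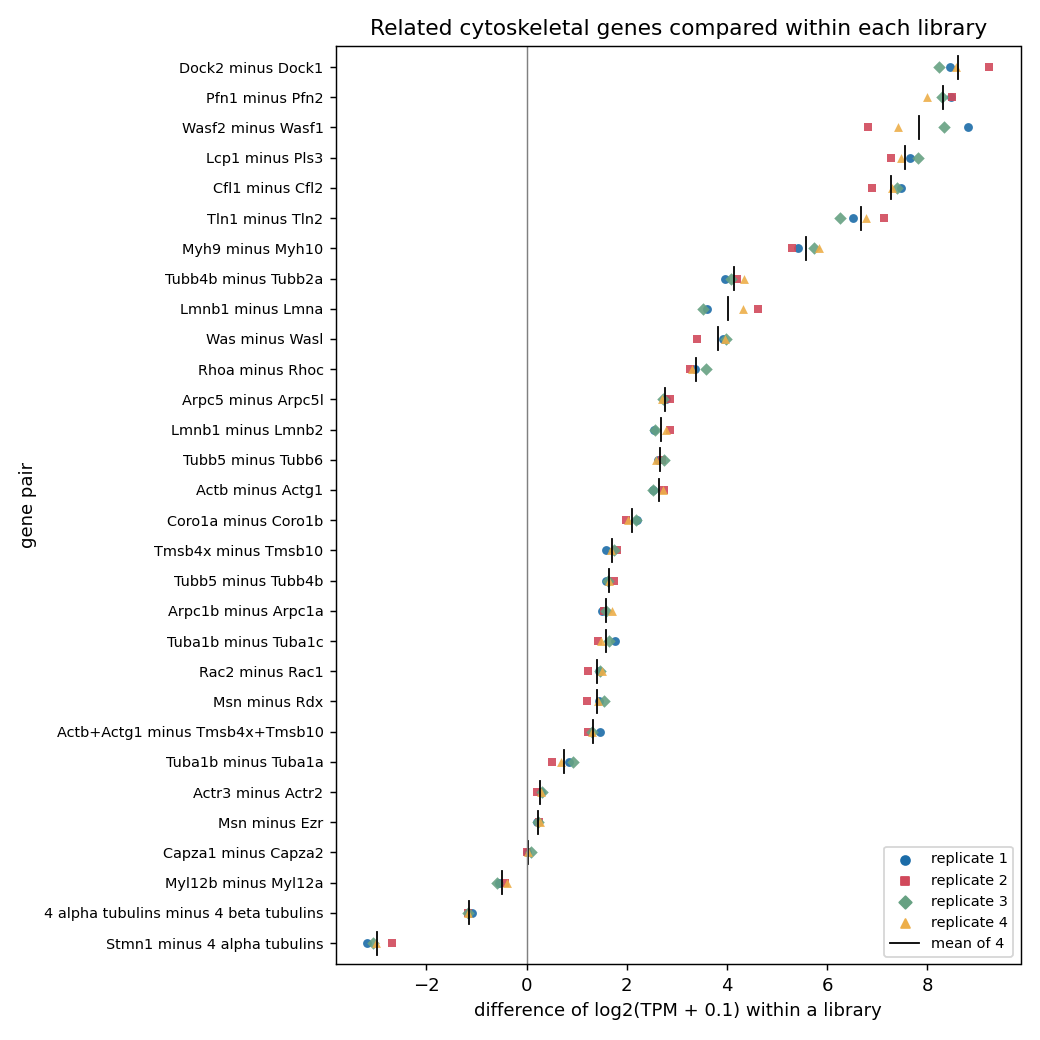
Difference of log2(TPM + 0.1) within a library for pairs of related genes or sums; each symbol is 1 replicate, the black bar the mean, and the grey line no difference. The 4 symbols lie on one side of 0 for every pair plotted except Capza1 minus Capza2, from 8.62 for Dock2 minus Dock1 to -2.98 for Stmn1 minus the alpha tubulins.

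Over all 31 comparisons, 28 between single genes and 3 with a sum, the direction was the same in 4 of 4 libraries for 30. With 4 libraries an exact two-sided sign-flip test cannot give a p below 2 of 16 sign assignments, which those 30 reached, and the adjusted p over the 31 was 0.129. None could therefore pass 0.05, and the SD covers only the spread between libraries, not the length assigned to a gene. In 14 comparisons a gene of the set was placed against a gene outside it. The set was chosen with earlier results of these data known, so the direction of those 14 may partly reflect that choice. Levels depend on the length assigned to a gene. With the length of the longest protein-coding transcript in place of the merged exons, 7 of the 52 means moved by over 1.5 times. Rhoa then had 304 TPM, Arpc3 632 TPM, Pfn1 3468 TPM, Lcp1 1081 TPM and Vim 1681 TPM, and Tuba1a had 259 TPM and Myl12b 135 TPM. These lengths are from GENCODE M21, and the counted exons from GENCODE M13. The M21 length exceeds the merged exons for Tuba1a (1803 against 1647 bases) and Myl12b (2143 against 1711 bases). The scaling total changed as well, and Cfl1, at 2354 bases under both, went from 1820 to 1328 TPM. How far each of these moved the 7 means was not tested. Of the 31 differences, 10 moved by over 1.5 times with that length. On the log2 scale, Arpc5 minus Arpc5l became 1.27, Msn minus Ezr 0.89, Msn minus Rdx 2.05, Rhoa minus Rhoc 4.72, Myl12b minus Myl12a -1.54 and Lmnb1 minus Lmna 3.19. The value for Myl12b minus Myl12a rests on a Myl12b length above its counted exons, as given above. Pfn1 minus Pfn2 became 9.21, Lcp1 minus Pls3 8.47 and Stmn1 minus the summed alpha tubulins -2.20, and Capza1 minus Capza2 turned to -0.94. In CPM, which leaves gene length out, 15 of the 31 moved by over 1.5 times, among them Arpc1b minus Arpc1a at 2.58, Was minus Wasl at 2.45 and the summed actins minus the thymosins at 2.31. The direction of 30 of the 31 was kept under both.

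Other genes of the same machinery were lower as a group, although 34 of 126 were at 100 TPM or more in every library and 97 at 1 TPM or more. The highest were regulators of small GTPases and proteins that cap or bind filaments. Arhgdia and Arhgdib, which hold small GTPases inactive, averaged 1507 ± 169 and 1033 ± 33.0 TPM, and Capg, which caps filaments, averaged 1242 ± 117 TPM (SD, n = 4 each). Tpm4, a tropomyosin, averaged 667 ± 47.6 TPM, and Hcls1, an Arp2/3-binding protein of blood cells, 750 ± 35.8 TPM (SD, n = 4 each). Vasp, which helps filaments grow, averaged 626 TPM, the integrin activator Fermt3 519 TPM, Cap1 484 TPM, Marcksl1 480 TPM and the tubulin-folding factor Tbca 298 TPM. Myo1g, a myosin of blood cells, averaged 222 TPM and Myo9b 108 TPM. Sun2 averaged 199.6 TPM, Lbr 164 TPM, Tubg1 163 TPM, Twf2 131 TPM, Arpc1a 107 TPM, Arpc5l 65.9 TPM and Actr3b 33.2 TPM. Several genes at the low end are known from muscle, epithelium or neurons. Acta2, Myl9, Krt8 and Stmn2 had 0 counts in all 4 libraries, and Vil1, Wasf3, Flnc and Dock1 averaged 0.0258, 0.00319, 0.124 and 0.252 TPM.

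Between the replicates, most of the 52 genes varied little. The median CV was 5.97%, against 7.82% for the 10640 protein-coding genes at 1 TPM or more in every library. For the 46 genes at 100 TPM or more it was 5.51%, against 5.54% for the 1923 protein-coding genes at that level. A CV over 10% was found for 11 of those 46 genes (23.9%) and for 12.9% of the 1923. Each gene was also tested for a spread above that typical of its level, with edgeR's quasi-likelihood dispersion over its fitted prior. After Benjamini-Hochberg adjustment, 0 of the 52 genes passed 0.05, against 1 gene (0.00734%) of all 13625 tested. That gene was Xist, the RNA that silences an X chromosome, with 173 and 199 TPM in replicates 1 and 2 but 0.593 and 0.758 TPM in replicates 3 and 4. The 1 group therefore held libraries with high Xist and libraries with low Xist. Whether these differ in sex or come from separate animals was not tested. The 4 X-linked genes Tmsb4x, Was, Flna and Msn had CVs of 2.84%, 6.06%, 12% and 1.28%. Was and Msn were slightly lower in replicates 1 and 2 than in replicates 3 and 4, as their values above show, and Tmsb4x and Flna were not. At an unadjusted p under 0.05, 11 of 52 genes (21.2%) passed, against 4.7% of all genes tested and 6 of 106 other cytoskeletal genes (5.66%), of which 0 passed after adjustment.

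Arhgap18 and Lmna stood highest. Arhgap18, at chromosome 10:26753421-26918648 on the plus strand of mm10, had 10.5, 10.96, 2.02 and 9.44 TPM, from 2482, 1308, 294 and 940 counts. Replicate 3 alone was low, and the other 3 lay close together. Its ratio of spread to typical spread, 47.7, was the second highest of the 13625 genes, with an unadjusted edgeR p of 7.98e-05 and an adjusted p of 0.398. Lmna, at chromosome 3:88480147-88509956 on the minus strand, had 6737, 1615, 4225 and 1614 counts in replicates 1 to 4. Its levels fell into 32.3 and 32.8 TPM in replicates 1 and 3, and 15.3 and 18.3 TPM in replicates 2 and 4. In bulk libraries, fewer cells with the transcript and less of it per cell cannot be told apart. The ratio for Lmna, 29.1, was the seventh highest, with an unadjusted edgeR p of 0.000361 and an adjusted p of 0.671.

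Both genes passed under some other settings. DESeq2 marked 43 of 13625 genes (0.316%) as dispersion outliers, among them Arhgap18 and Lmna. Without a filter on low counts, 98 of 23106 genes (0.424%) passed in edgeR, with adjusted p of 1.13e-07 for Arhgap18 and 2.79e-05 for Lmna. Without replicate 2, 18 of 14003 genes (0.129%) passed, with adjusted p of 0.00446 for Arhgap18 and 0.0348 for Lmna in edgeR. Without replicate 3 the adjusted p of Arhgap18 was 0.997, and its ratio was 0.483.

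**Figure D3:**
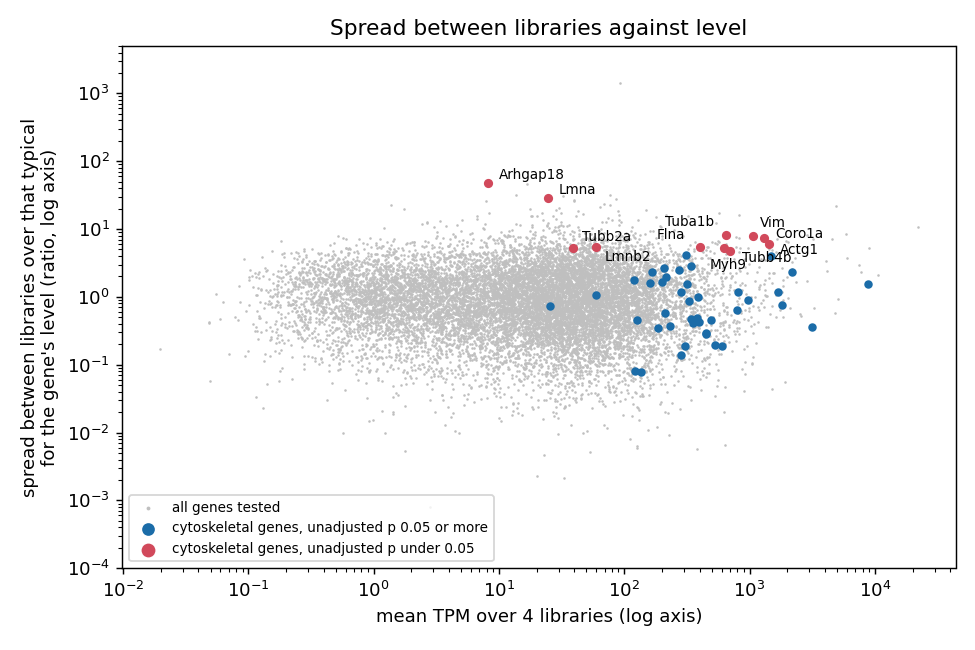
Spread between libraries, as edgeR's quasi-likelihood dispersion over the value typical for the gene's level (log axis), against mean TPM (log axis); grey points are the 13625 genes tested, and blue and red points the 52 cytoskeletal genes with an unadjusted p at or above and under 0.05. Arhgap18 (47.7) and Lmna (29.1) lie above the other labelled genes, and the single grey point at the top is Xist.

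The other 9 genes with an unadjusted p under 0.05 were Vim, Tuba1b, Coro1a, Actg1, Flna, Lmnb2, Myh9, Tubb2a and Tubb4b, all with an adjusted p of 0.965 in edgeR. All 9 were lowest in replicate 2 and highest in replicate 1. Their CVs ran from 11.1% for Myh9 and Tubb4b to 19.6% for Tubb2a, and Tuba1b was at 15.3% and Vim at 14.2%. Over all 52 genes, 29 (55.8%) were lowest in replicate 2, against 27.8% of the 13625 genes tested. In the opposite direction, 14 of the 52 (26.9%) were highest in replicate 2, a smaller share than the 41.8% of all genes tested. They included Cdc42, Arpc2, Arpc5, Actr2, Actr3, Capza1, Wipf1, Rac1, Rhoa, Rdx and Stmn1. By role, 8 of 9 tubulin and stathmin genes and 5 of 6 actin monomer genes were lowest there. Of the 8 small GTPases and regulators, 5 were highest there, beside the 41.8% over all genes.

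These deviations moved with base composition. The median GC content of the longest transcript was 54.0% for the 29 genes lowest in replicate 2 and 45.2% for the 14 highest there. Across the 52 genes, which share the libraries, the Spearman correlation between GC content and the deviation from the 4-library mean was -0.77, 0.65, 0.62 and -0.21 in replicates 2, 1, 3 and 4. Across 13603 genes the same correlation was -0.45, 0.34, 0.20 and 0.15 in replicates 2, 1, 3 and 4. After the dependence on GC content and length was taken out of every library, 19 of the 52 (36.5%) were lowest in replicate 2, against 23.7% of all 13625 genes, and the median CV was 4.34%. Of the 11 genes with an unadjusted p under 0.05 before, 7 were still lowest there, and their median CV was 10.9%. In edgeR 11 genes then had an unadjusted p under 0.05, 9 of them shared with the first 11, while Tubb2a and Tubb4b no longer did and Myl6 and Wipf1 did. Arhgap18 kept a CV of 50.1% and Lmna of 35.6%, and Vim had 15.9%. The part of other library properties in these values was not tested.

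**Figure D4:**
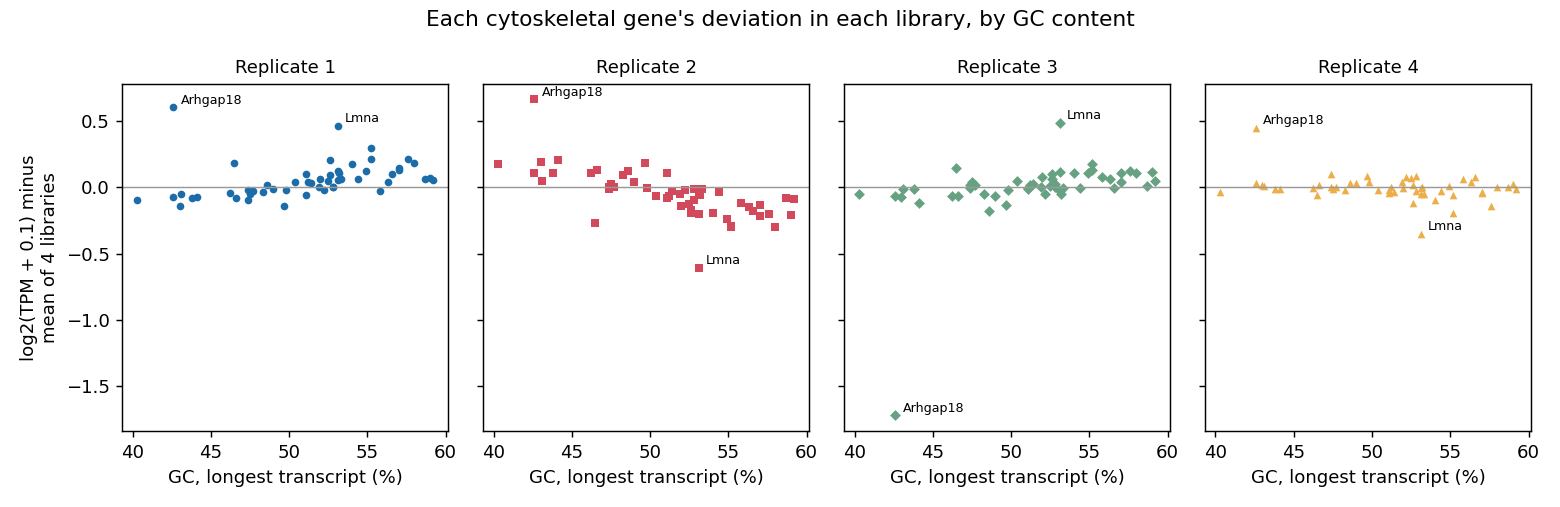
Deviation of log2(TPM + 0.1) from the 4-library mean for each of the 52 genes against the GC content (%) of its longest transcript, 1 panel per replicate; the grey line is no deviation. The cloud falls with GC content in replicate 2 (Spearman correlation -0.77) and climbs in replicates 1 (0.65) and 3 (0.62), with Arhgap18 and Lmna outside it.

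The promoters were searched for letters of a pair of elements, on both strands of 300 bases around each start (250 before, 50 after; RefSeq, GRCm38.p6). A promoter was given for 45 of the 52 genes, the others being Actb, Cotl1, Rac1, Rac2, Lmnb1, Tubb6 and Stmn1. The CArG box, the letters read by serum response factor, a regulator of many actin genes, was found in 4 of 45 (8.89%), against 1.81% of 27025 genes and 4 of 101 other cytoskeletal genes (3.96%). The 4 are printed because this element is known from actin genes, with the match in capitals in 60 bases of promoter. They lie at chr11:120348551-120348610 on the minus strand (Actg1), chr6:113377863-113377922 on the plus strand (Arpc4), chr10:128493025-128493084 on the minus strand (Myl6) and chr14:20929148-20929207 on the plus strand (Vcl).
Actg1: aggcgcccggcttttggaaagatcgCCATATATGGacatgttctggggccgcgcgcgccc
Arpc4: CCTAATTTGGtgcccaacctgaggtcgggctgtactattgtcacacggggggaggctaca
Myl6: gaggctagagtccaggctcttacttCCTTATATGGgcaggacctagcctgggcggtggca
Vcl: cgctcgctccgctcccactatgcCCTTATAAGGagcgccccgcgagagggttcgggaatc

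The matches began 90, 250, 50 and 227 bases before the start. For Myl6 the table gives a pair of starts, and the match precedes the one further downstream, the other having none. The levels of these 4 genes ran from 59.4 TPM for Vcl to 1436 TPM for Actg1. Actg1, Arpc4 and Myl6 were lowest in replicate 2, as were 55.8% of the 52 genes and 27.8% of all genes tested. Vcl was highest there, as were 26.9% and 41.8%. Arpc4 had 345.3 TPM in replicate 2 and 346.1 TPM in replicate 3. With trends over GC content and length removed, replicate 2 was its highest, at 365.2 TPM. A link between the element and these values was not tested. TATAAA was found in 6 of 45 promoters (13.3%), against 15.7% of all genes in the table. In Tubb2a and Vim it began 29 and 32 bases before the start, where a TATA box usually lies, and these 60 bases are shown with it in capitals (chr13:34078003-34078062 on the minus strand and chr2:13574254-13574313 on the plus strand). Both genes were among the 11 with an unadjusted p under 0.05.
Tubb2a: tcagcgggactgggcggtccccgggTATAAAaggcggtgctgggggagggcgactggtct
Vim: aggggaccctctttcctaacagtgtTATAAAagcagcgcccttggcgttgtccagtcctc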

How the data were processed

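The authors deposited unnormalized counts of fragments for every gene and library. Per the file headers they came from featureCounts 1.4.6-p4 with the mm10 annotation GENCODE M13 (paired fragments with both ends mapped, strand setting 2, exons grouped by gene). For the aligner, version and options are not given in the sources used. The deposited merged exon length, the other value used, gave TPM with the counts. Total counts ranged from 51460018 to 121477975, and a count of 0 allows up to 3 counts; counts cover counting error only.

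The members and gene lists were chosen with earlier results of these data known. Replicates were taken from the labels. Tests of the spread between replicates used edgeR 4.0.16 in R 4.3.3, with TMM, filterByExpr and an intercept-only quasi-likelihood fit. The robust prior had 6.54 degrees of freedom. An upper-tail F test of dispersion over prior was adjusted by Benjamini-Hochberg over 13625 genes. It was tried on counts simulated with the same dispersion for every gene and no GC trend, unlike these data. Pairs were compared as differences of log2(TPM + 0.1) with an exact sign-flip test; 1 pair and some sequences are not reported here. Alternatives were DESeq2 1.42.0, limma 3.58.1, other normalizations, filters, thresholds, priors, pseudocounts and scalings, and leaving out each replicate; removing trends over GC content and length, and the transcript length, were chosen after seeing the data. GC content, transcript lengths, coding sequences and 100-base windows came from GENCODE M21 transcripts, and promoters from RefSeq. Protein sequences were not used here, so coding sequences were compared instead. Tables used Python 3.11.15 with pandas 2.3.3 and Biopython 1.88.

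Every member is named with its mean or its values. Values in every library are given for the 2 highest of each role, genes of a pair of members, the 3 lowest and 3 highest by CV in TPM and X-linked members. Of other cytoskeletal genes, the 2 highest and the lowest of each group are named, beside those of the pairs.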

Additional observations from a re-analysis of the deposited data

Results flagged for a closer look

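Within 52 gene levels and 31 pair differences, each over 4 libraries, 2 levels and 2 differences had 1 library far from the other 3. Chance flags about 1 in 20 such groups. Arhgap18 had 2.02 TPM in replicate 3, against 9.44 to 10.96 TPM in the others. Tuba1c had 196 TPM in replicate 2, against 222 to 226 TPM in the others. Was minus Wasl was 3.40 on the log2 scale in replicate 2, against 3.93 to 3.98 in the others. The 4 alpha minus the 4 beta tubulin genes was -1.09 on the log2 scale in replicate 1, against -1.18 to -1.17 in the others.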

How the results depend on the processing

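No gene of the 52 was called variable in edgeR with all 4 libraries, TMM and the filter, and 2 were called (Arhgap18 and Lmna) without the count filter, as DESeq2 dispersion outliers, and without replicate 2. Leaving out 1 replicate gave 0 to 2 of the 52 and 1 to 18 of all genes. Over all genes 1 was called, against 98 without the filter and 43 DESeq2 outliers. The other normalizations, the filter of 50 counts, limma, the prior without robust estimation, the threshold of 0.01 and the removal of GC and length trends gave 0 of the 52. For the no-filter setting, genes with few counts enter the fitted prior. The direction of all 31 pairs held with a pseudocount of 1 and without any 1 replicate; Capza1 minus Capza2 became -0.61 with CPM and -0.94 with the transcript length, and the other 30 kept their direction. The median level, 343 TPM, was 395 TPM without mitochondrially encoded and ribosomal protein genes in the scaling and 336 TPM with the transcript length. The share of TPM, 3.71%, was 4.26% and 4.00% under those settings. Levels of near-identical copies and of genes with long merged exons are uncertain, and 4 libraries of 1 group allow no comparison with other cells.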
